A study of Homo sapiens with 8 samples.

Results

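The genes that encode the N6-methyladenosine (m6A) writing machinery were examined as carriers of m6A peaks in chromosome-associated RNA. The members were METTL3, METTL14, WTAP, VIRMA, RBM15, RBM15B, ZC3H13 and CBLL1, which encode subunits of the METTL3 complex, and METTL16 and PCIF1, which encode separate RNA adenosine methyltransferases. They were chosen by name, and every peak that overlapped the RefSeq bounds of a member by at least 1 bp, on either strand, was taken. This gave 46 of the 53021 peaks in both lists, namely 21 of 23937 in the METTL3-knockout list and 25 of 29084 in the wild-type list. All 10 genes were found among 20033 protein-coding genes. The rule used no measured value.

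The cells were HEK293T, an established human embryonic kidney line, with METTL3 knocked out (METTL3-/-) or parental (wild type). RNA was taken from the chromosome fraction, cleared of DNA and ribosomal RNA, and part of it was pulled down with an m6A antibody kit (IP) while the rest served as input. The 8 libraries form 4 groups of 2 replicates, which are knockout IP, knockout input, wild-type IP and wild-type input. Each genotype is represented by 1 deposited peak list, so no spread between replicates and no p-value for the genotype can be given. How METTL3 was disrupted and how many knockout clones were used are not given in the sources used here.

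In the cell nucleus METTL3 transfers the methyl group and METTL14 holds the RNA substrate beside it. WTAP binds this pair and directs it to nuclear speckles, and VIRMA, ZC3H13, CBLL1 and the RNA-binding proteins RBM15 and RBM15B join through WTAP to place the enzyme on its targets. METTL16 acts on its own, on the U6 small nuclear RNA and on hairpins of the MAT2A mRNA, and PCIF1 methylates the adenosine next to the mRNA cap. The messages of these genes are themselves RNAs on which m6A can be looked for.

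A peak is called shared when it overlaps, by 1 bp or more and with strands alike, a peak of the other list. Fold is the deposited ratio of IP to local input at the summit of a peak. Before the ratio, IP is multiplied by a factor of its list and strand, and 1 is added to each side. IP over local input uses the same factor without the added 1. IP reads are printed without this factor, so they do not give the fold directly. IP reads and local input behind each summit were recovered from the deposited fold and p-value, and local input is in reads per 200 bp. Depths recovered in the same way, knockout over wild type, had ratios of 1.17 (plus strand) and 1.20 (minus strand) for IP, and of 0.923 and 0.918 for input. Values "at equal depth" are divided by these ratios. Scaled IP reads are thus relative to the depth of their own library. A change in IP yield common to a whole library would not show in them.

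Of the 10 genes, 8 carried peaks in both lists, METTL3 in the wild-type list alone and PCIF1 in neither. Over all protein-coding genes 26.6% had peaks in both lists and 52.1% in neither. These shares are not matched on gene length or RNA level, so the difference is not particular to writer genes on this comparison. Of the writer peaks, 11 of 21 in the knockout list (52.4%, 95% Clopper-Pearson interval 29.8 to 74.3) and 11 of 25 in the wild-type list (44.0%, 24.4 to 65.1) were shared. The intervals cover counting error only and treat peaks as independent, though many lie in the same gene. Both counts of 11 come from the same pairs. Without a partner were 10 knockout peaks (47.6%) and 14 wild-type peaks (56.0%), beside 75.2% of all knockout and 79.6% of all wild-type peaks. ZC3H13 alone gave 5 of the 11 shared pairs, and without it 6 of 14 knockout peaks and 6 of 15 wild-type peaks were shared.

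**Figure D1:**
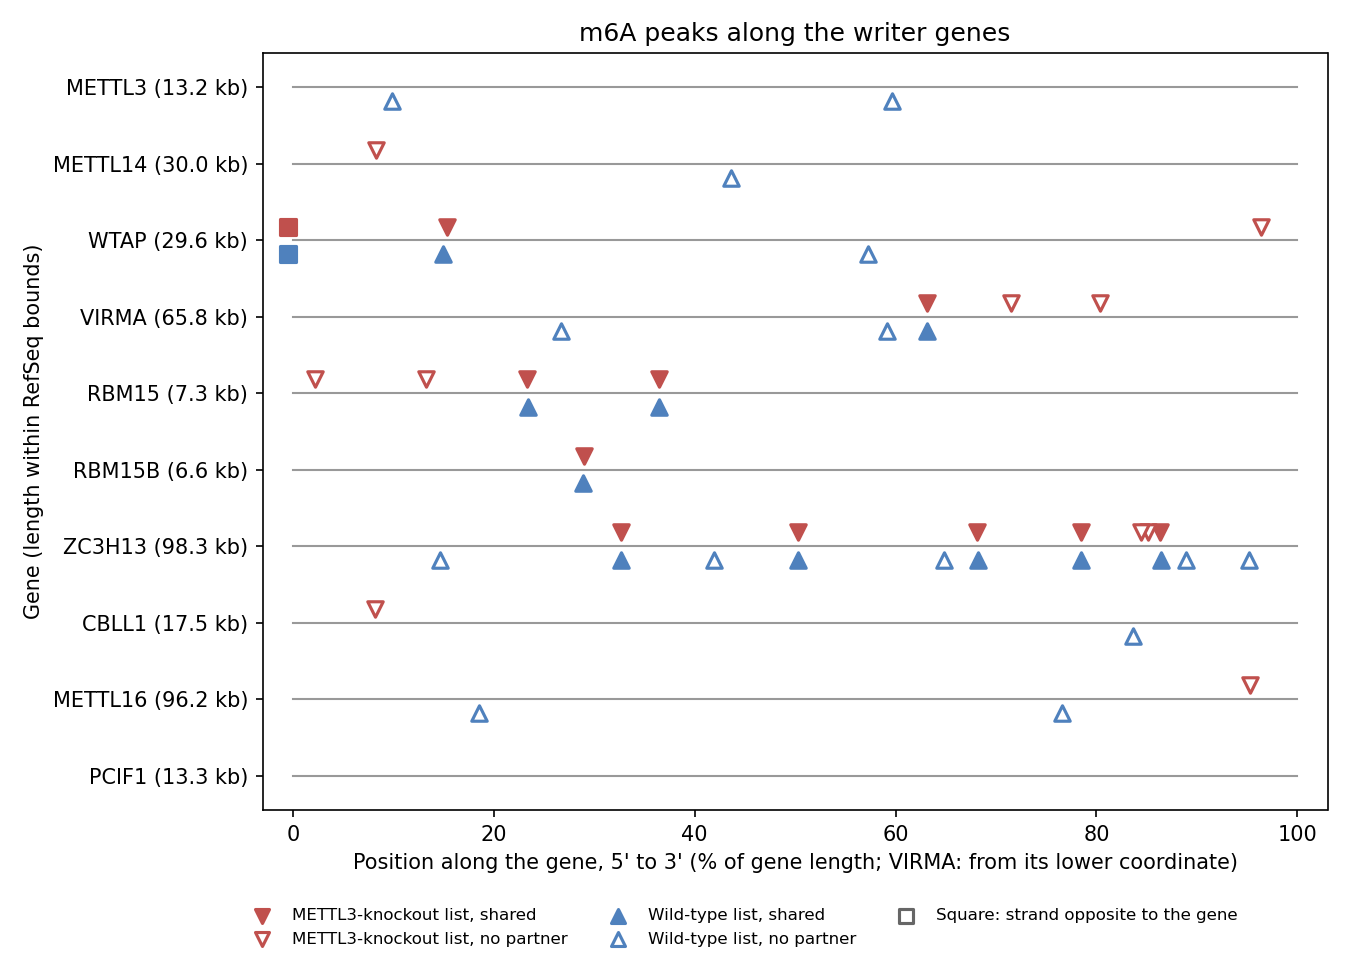
Each horizontal line is a writer gene drawn 5′ to 3′ as percent of its length, except VIRMA, which is drawn from its lower coordinate. Peaks of the knockout list stand above the line in red and those of the wild-type list below it in blue, filled where shared, and squares mark the strand opposite to the gene. METTL3 has 0 peaks in the knockout list and 2 in the wild-type list, PCIF1 has none, and the 5 filled pairs of ZC3H13 stand at matching places.

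METTL3, the catalytic subunit, is the targeted gene. It lies on the minus strand of chromosome 14 from 21498138 to 21511340 (GRCh38). The knockout list held 0 peaks in it, and the wild-type list held 2 on the strand of the gene. The wild-type peaks lay at 21503361 to 21503569 and at 21509944 to 21510143, with summits 7934 and 1288 bp from the 5′ end. They rested on 32 IP reads (95% Poisson interval 21.9 to 45.2) and 24 IP reads (15.4 to 35.7), over local inputs of 3 and 2 reads. At the wild-type rate, knockout IP depth would have given 38.4 reads (26.3 to 54.2) and 28.8 reads (18.4 to 42.8). Those wild-type counts come from peaks that passed the caller in wild type, so selection can make them high. The intervals cover their counting error only. Knockout IP reads at these places are not given by a peak list, so no shortfall was measured.

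Both METTL3 peaks were weak within their list, with folds of 4.83 and 4.91 that exceeded 13.2% and 14.3% of wild-type folds. Of all wild-type peaks with 31 to 60 IP reads 28.3% were shared, and of those with 16 to 30 reads 12.3%. Of all protein-coding genes with exactly 2 wild-type peaks, 32.1% had no knockout peak, and of those with any wild-type peak 32.8%. METTL3 therefore had a pattern that 562 other protein-coding genes had too. The 5 of these nearest to it in length were CCND1, UQCRH, NOB1, CRIPT and BTN3A3, from 12.9 to 13.3 kb long. Input reads in METTL3 in knockout cells are not given by a peak list, so the level of its RNA there was not measured.

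METTL14, the RNA-binding partner of METTL3, had 1 peak in each list, and the peaks were at different places. The knockout peak lay on chromosome 4 at 118687766 to 118687974 with 71 IP reads over a local input of 4 reads and a fold of 7.01. The wild-type peak lay at 118698401 to 118698605 with 49 IP reads over 4.60 reads and a fold of 5.49. The summits stood 2529 bp from the 5′ end in the knockout and 13134 bp in wild type, in a gene of 30.04 kb. Both were on the plus strand, that of the gene. Of 1000 protein-coding genes with 1 peak in each list, 63.4% likewise had them at different places.

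WTAP, which tethers the catalytic pair in the nucleus, held 3 peaks in each list, 2 of them shared. The shared peak of higher fold lay at chromosome 6, 159731030 to 159731474 in the knockout and 159731034 to 159731233 in wild type. It had 70 IP reads in the knockout (59.9 at equal depth), against 31 in wild type, which is 1.93-fold higher in the knockout (log2 0.95, 95% interval 0.32 to 1.61 from IP counting error). Its fold was 12.1 in the knockout and 5.21 in wild type. The knockout peak was 445 bp long and the wild-type peak 200 bp, and their summits were 166 bp apart. This was the widest gap between summits among the 11 writer pairs, whose median was 17 bp, beside 28 bp over all 5714 one-to-one pairs. IP reads were taken at the summit of each list, so the ratio and its interval compare 2 positions, not 1. If shared peaks must have summits within 100 bp, this pair is not shared.

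The other shared WTAP peak was on the minus strand, opposite to the gene, at 159726396 to 159726727 in the knockout and 159726290 to 159726814 in wild type. It held 37 IP reads in the knockout and 45 in wild type, and it straddled the 5′ bound of WTAP. All WTAP peaks also lie within the bounds of SOD2, the mitochondrial superoxide dismutase gene, which is transcribed from the minus strand. Peaks on the plus strand without a partner lay near the 3′ end in the knockout (159755076 to 159755436, 72 IP reads, fold 3.23) and in mid-gene in wild type (159743568 to 159743768, 48 IP reads, fold 7.24).

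VIRMA, the scaffold known for directing m6A towards the ends of messages, held the peak of highest wild-type fold among the members. It lay on the minus strand of chromosome 8 at 94529103 to 94529386 in the knockout and 94529080 to 94529413 in wild type. Its fold was 6.14 in the knockout and 27.4 in wild type, and the wild-type value exceeded 99.9% of the folds of its list. The IP reads were nearly the same at equal depth, with 278 in the knockout (231.7 scaled) and 238 in wild type, a log2 difference of −0.04 (95% interval −0.29 to 0.22).

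The local input at this VIRMA peak did differ. It was 19.0 reads in the knockout (20.7 at equal depth), against 4 in wild type, which is 5.17-fold higher in the knockout. The log2 difference in IP over local input, −2.41, was the most negative of the 11 writer pairs. VIRMA had a further 2 peaks in each list with no partner. Those of the knockout had 29 and 41 IP reads (folds 10.5 and 6.32), and those of wild type had 11 and 37 (folds 6.08 and 8.52).

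RBM15, an RNA-binding adaptor that brings the complex to its targets, had 4 peaks in the knockout list and 2 in the wild-type list. It is a short gene of 7.30 kb on chromosome 1. Among 2950 protein-coding genes within 1.5-fold of its length, 0.0339% had 4 or more knockout peaks, which is RBM15 itself, and 3.83% had 2 or more wild-type peaks. Of these genes 75.1% had no peak in either list. They were matched on length only, not on RNA level. Both wild-type peaks were shared, with edges that matched within 2 bp. They lay at 110340923 to 110341240 and 110341913 to 110342158 in the knockout, and at 110340924 to 110341242 and 110341915 to 110342160 in wild type. Over all shared pairs 6.44% had both edges within 5 bp, and among the writer pairs 3 of 11 did.

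IP reads at these shared RBM15 peaks were lower in the knockout at equal depth. The first had 131.7 scaled reads in the knockout, against 202 in wild type (log2 −0.62, 95% interval −0.93 to −0.31). The second had 82.1 in the knockout, against 123 in wild type (log2 −0.58, −0.98 to −0.19). Local input was also lower in the knockout, at 41.2 and 7.65 reads at equal depth, against 46 and 14 in wild type, and the log2 differences of IP over local input were −0.46 and 0.29. Folds at the first peak were 1.92 in the knockout and 2.63 in wild type, each among the lowest 1% of its list.

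The 2 RBM15 peaks of the knockout list without a partner lay further 5′, with summits 130 and 932 bp from the start of the gene. They rested on 145 and 190 IP reads, with folds of 6.65 and 2.63 over local inputs of 9.60 and 34.0. These were the only writer peaks above 100 IP reads that had no partner in the other list. Of all knockout peaks above 100 reads, 70.0% were shared.

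RBM15B, the paralogue of RBM15, had 1 peak in each list at the same place on chromosome 3, 51392991 to 51393415 in the knockout and 51392942 to 51393448 in wild type. Summits were 3 bp apart, the closest of the writer pairs. The knockout peak held 126 IP reads (107.8 at equal depth) and the wild-type peak 156, a log2 difference of −0.53 (95% interval −0.88 to −0.19). Local input was 19.5 reads at equal depth in the knockout and 31 in wild type, so that IP over local input differed by 0.14 on the log2 scale. As in both RBM15 pairs, the values of IP and of input were both lower in the knockout. Local input has no interval here, and at the first RBM15 pair it differed by only −0.16 on the log2 scale.

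ZC3H13, which keeps the complex in the nucleus, carried the most peaks, with 7 in the knockout list and 10 in the wild-type list, 5 of them shared. It spans 98.3 kb of chromosome 13, and all its peaks lay on the strand of the gene. Among 2884 genes of like length, 3.61% had at least as many knockout peaks and 1.14% at least as many wild-type peaks. Of these genes, not matched on RNA level, 25.1% had no peak in either list. Of 66 protein-coding genes with exactly 10 wild-type peaks, 1.52% had no knockout peak. PHACTR4 alone had the same 3 numbers of knockout, wild-type and shared peaks.

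At the 3 shared ZC3H13 peaks nearest to the 3′ end IP reads were higher in the knockout. At 45967753 to 45968085 (knockout coordinates) the scaled reads were 182.6 in the knockout, against 96 in wild type (log2 0.93, 95% interval 0.57 to 1.29). At 45975365 to 45975919, the longest of them, they were 215.1 in the knockout, against 154 in wild type (log2 0.48, 0.19 to 0.78). At 45985583 to 45985939 they were 138.4 in the knockout, against 76 in wild type (log2 0.86, 0.46 to 1.28). At all 3 the knockout also had more local input, by 0.66, 0.72 and 0.86 on the log2 scale, and IP over local input differed by 0.26, −0.24 and 0.00.

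The remaining 2 shared ZC3H13 peaks differed in local input more than in IP. At 46003161 to 46003419 scaled IP reads were 119.2 in the knockout and 99 in wild type (log2 0.27, 95% interval −0.11 to 0.65), while local input was 1.74 in the knockout and 6 in wild type. Fold was accordingly 24.5 in the knockout and 8.23 in wild type. At 46020534 to 46020735 scaled IP reads were 57.5 in the knockout and 49 in wild type (log2 0.23, −0.32 to 0.79), and local input was 5.45 in the knockout and 1.18 in wild type. Here fold was 5.20 in the knockout and 13.3 in wild type, so that neighbouring peaks of 1 gene differed in opposite directions in fold, with IP intervals that both include 0.

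The ZC3H13 peaks without a partner had at most 65 IP reads in the knockout and 63 in wild type. The knockout list had 2, with 57 and 65 IP reads and folds of 9.27 and 2.95, and they lay between the shared peaks at 45967753 and 45975365. The wild-type list had 5, with 21 to 63 IP reads and folds from 4.25 to 12.01, spread over the gene.

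CBLL1, also called HAKAI, an E3 ubiquitin ligase that steadies the complex, had 1 peak in each list, far apart on chromosome 7. The knockout peak at 107745474 to 107745673 had 37 IP reads and a fold of 5.86, with its summit 1434 bp from the 5′ end. The wild-type peak at 107758324 to 107759261 had 25 IP reads and a fold of 9.40, with its summit 14818 bp from the 5′ end, and at 938 bp it was the longest of all writer peaks.

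METTL16, the separate methyltransferase of U6, had 1 knockout and 2 wild-type peaks, none shared, in 96.2 kb of chromosome 17. The knockout peak lay at 2420034 to 2420469, near the 3′ end, with 41 IP reads and a fold of 11.8. The wild-type peaks at 2438170 to 2438369 and 2493971 to 2494198 had 15 and 31 IP reads and folds of 6.22 and 12.3. Among 2932 genes of like length, 48.0% had 2 or more wild-type peaks and 61.1% had 1 or more knockout peaks. PCIF1, the enzyme of the cap-adjacent mark, had 0 peaks in both lists, as had 64.9% of 3843 protein-coding genes of like length and 52.1% of all protein-coding genes.

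A knockout peak just outside the METTL16 bounds overlapped 162 bp of its promoter window. It lay on the plus strand, opposite to METTL16, at 2511977 to 2512276, 89 bp upstream of the gene. It had 16 IP reads (95% Poisson interval 9.15 to 26.0) over a local input at the genome background of 0.160, with a fold of 7.47, and the wild-type list had no peak there. It was the only peak in or within 2000 bp of the members that overlapped a window of the promoter table used here, whose WTAP windows start downstream of the WTAP bound. The part of the METTL16 window under that peak is shown because it is the one peak at these genes with sequence in the reference tables used here (RefSeq, GRCh38.p14, chr17:2511977-2512138, minus strand, bases 89 to 250 upstream of the gene start). Capitals mark GGACT, the common core of m6A sites, on the strand of METTL16, and GTCC, which is GGAC read on the strand of the peak.
METTL16 promoter: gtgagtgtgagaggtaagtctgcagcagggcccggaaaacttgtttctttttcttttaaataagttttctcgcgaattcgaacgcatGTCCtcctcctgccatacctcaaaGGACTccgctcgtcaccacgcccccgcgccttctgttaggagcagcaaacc
GGACT, searched on both strands, was found 1 time on the strand of METTL16 and 0 times on that of the peak, and GGAC, which is contained in GGACT, 1 time on each strand. Of the same stretch of 35116 promoter windows, 26.9% held GGACT and 68.6% held GGAC on either strand. On the strand opposite to the gene, that of the peak, the shares were 14.9% and 45.5%. The marked GGACT is not on the strand of the peak, so it does not mark an m6A site of the peak.

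The writer peaks were compared with the whole lists in their read support. They rested on more IP reads, with a median of 72 in the knockout list and 48 in the wild-type list, beside medians of 31 and 24 over all knockout and all wild-type peaks. IP reads were above the median of the list in 20 of 21 knockout and 21 of 25 wild-type writer peaks. Local input was above it in 19 of 21 and 20 of 25. Their medians of local input were 7.06 reads in the knockout and 3 in wild type, beside 0.900 over all knockout peaks and 0.800 over all wild-type peaks. Folds did not follow, with 15 of 21 knockout and 15 of 25 wild-type writer peaks below the median fold of the list (7.06 and 7.29).

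**Figure D2:**
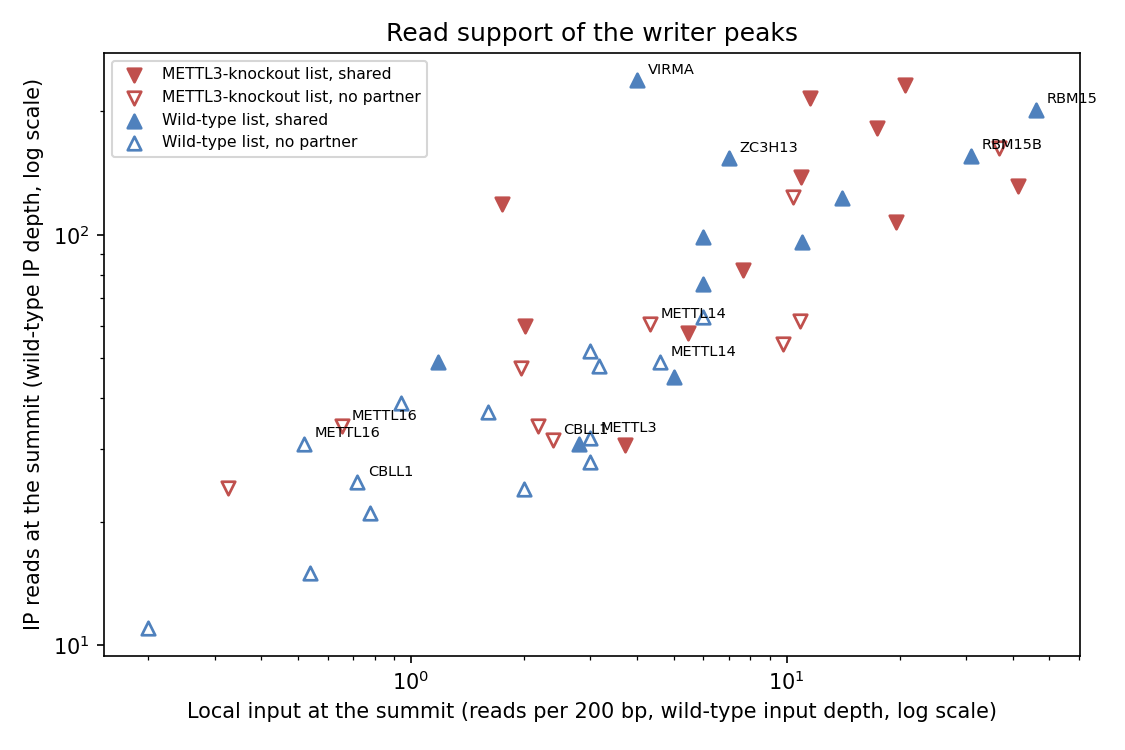
Every writer peak is a point, with local input at the summit on the horizontal axis and IP reads on the vertical axis, both logarithmic and at wild-type depth. Knockout peaks are red and wild-type peaks blue, filled where shared. All peaks above 100 reads belong to RBM15, RBM15B, ZC3H13 and VIRMA, and METTL3, CBLL1 and METTL16 peaks lie below 40 reads.

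Sharing among all peaks climbed with IP reads, so the writer peaks were read against peaks of like support. Of the 9 knockout writer peaks above 100 reads 7 were shared, and of the 5 wild-type ones 5 were, beside 70.0% and 69.3% of all such knockout and wild-type peaks. Between 61 and 100 reads 3 of 6 knockout and 3 of 4 wild-type writer peaks were shared, beside 46.4% and 49.8%. Between 31 and 60 reads the counts were 1 of 5 and 3 of 10, beside 27.3% and 28.3%. None of the 1 knockout and 6 wild-type writer peaks of up to 30 reads was shared, in classes where few of all peaks were (13.4% of knockout peaks with 16 to 30 reads, and 12.3% of wild-type peaks with 16 to 30 and 5.54% with up to 15). Sharing at the rate of all peaks in the same read classes would have given 10.6 of the 21 knockout and 8.88 of the 25 wild-type writer peaks, where 11 of each were found.

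**Figure D3:**
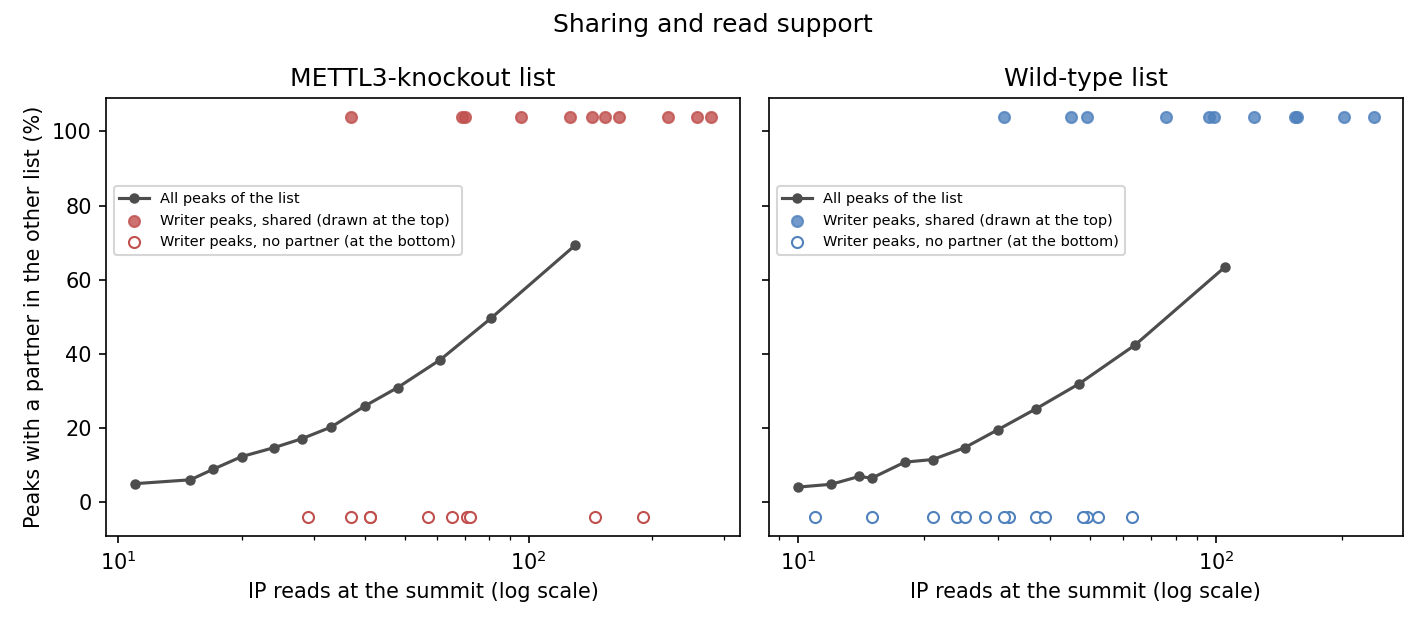
The line gives the percent of all peaks of a list that have a partner in the other list, by IP reads at the summit on a log axis, for the knockout list at left and the wild-type list at right. Writer peaks are drawn at the top where shared and at the bottom where not. All 5 wild-type writer peaks above 100 reads are at the top, and 7 of the 9 such knockout peaks.

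Over the 11 shared writer pairs the median log2 difference, knockout minus wild type, was 0.00 in IP over local input (range −2.41 to 2.05), beside 0.09 over all 5714 one-to-one pairs (quartiles −0.65 and 0.81). Pairs hold only peaks called over input in both lists, which by itself favours a centre near 0. The 10 knockout and 14 wild-type writer peaks without a partner do not enter. IP reads at equal depth differed by a median of 0.23 (range −0.62 to 0.95), beside −0.01 over all pairs. In IP reads 0 of 11 pairs differed by 1 or more on the log2 scale, beside 8.19% of all pairs. In local input 3 of 11 did, at VIRMA and at 2 ZC3H13 peaks, beside 42.3% of all pairs. The knockout was higher in IP over local input by 1 or more in 2 pairs, at WTAP and ZC3H13, and lower in 2, at VIRMA and ZC3H13, beside 20.4% and 17.1% of all pairs. With 11 pairs, 0 in IP reads is near the share of 8.19%. Writer peaks had more IP reads and local input than all peaks, and these shares are not matched for either. Local input is the highest of several window averages as the peak caller computed it, so it can jump between peaks of 1 gene, and its spread between replicates was not measured.

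**Figure D4:**
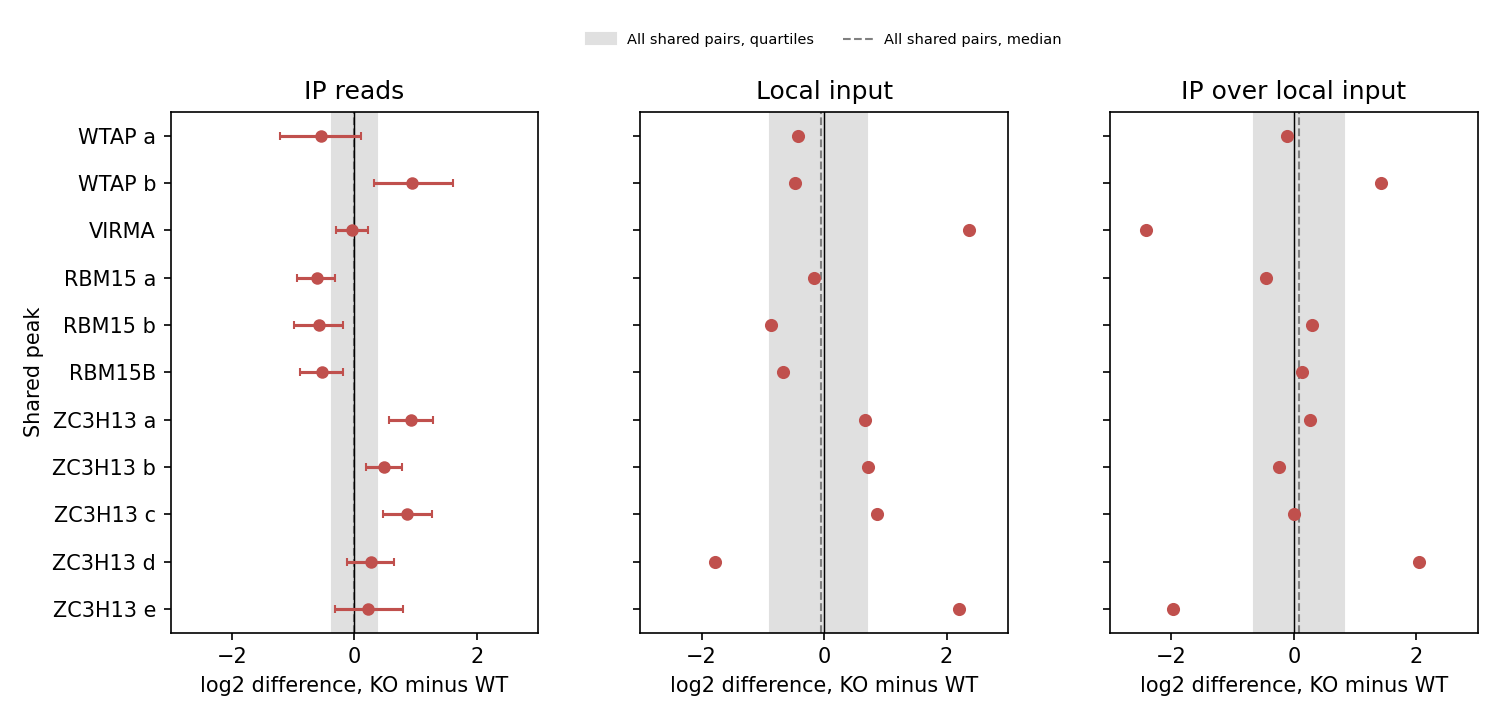
The 11 shared peaks are rows, lettered by coordinate within a gene, and the panels give the log2 difference, knockout minus wild type, in IP reads, local input and their ratio. Bars are 95% intervals from IP counting error, and grey bands and dashed lines give the quartiles and median of all shared pairs. IP reads stay within 1 of 0 in every row, while local input at VIRMA and at ZC3H13 d and e lies beyond 1.

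Other genes of m6A metabolism were counted in the same way. Of 7 further methyltransferase and methyl-donor genes, METTL4 had 1 knockout and 1 wild-type peak at different places, and AHCY, which clears the by-product of methylation, had 1 and 3 with 1 shared. METTL5, TRMT112, ZCCHC4, MAT2A, which is a METTL16 target, and MAT2B had 0 in both lists, as had 52.1% of all protein-coding genes. Of 12 reader and demethylase genes, 9 had peaks in both lists (26.6% of all protein-coding genes), YTHDF1 in the knockout list alone and ALKBH5 and HNRNPA2B1 in neither. The share over all genes is not matched on length or RNA level. The demethylase gene FTO had 9 knockout and 12 wild-type peaks, YTHDC2 had 6 and 4, and IGF2BP2 had 4 and 4. The 12 genes together held 33 knockout and 32 wild-type peaks, and 14 of the wild-type peaks were shared, where 79.6% of all wild-type peaks were not. METTL3 was the only gene among the 10 writers and these 19 genes with a wild-type peak and no knockout peak within its bounds. Of all protein-coding genes with a wild-type peak, 32.8% had that pattern. With bounds widened by 2000 bp METTL3 too had a knockout peak, on the opposite strand.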

How the data were processed

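Per the submitters' processing notes, reads were handled with MACS2 2.2.7.1, HISAT2 2.2.1 and SAMtools 1.15.1 in the build hg38, in an order and with settings that they do not state. The 2 deposited peak lists, 1 per genotype, give for each peak a fold (the ratio of IP to local input), a p-value and a q-value that were deposited as −log10 values, and a display score that the authors deposited and that was not used. No source used here says whether replicates were pooled before calling. Coordinates were made 1-based. Genes, bounds and strands came from RefSeq GRCh38.p14. Strand was known for 9 of 10 members and 15842 of 20033 protein-coding genes, not for VIRMA, and exons were not used here.

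Computed here, with Python 3.11.15, numpy 2.4.6, pandas 2.3.3, SciPy 1.17.1 and matplotlib 3.10.9: overlaps of at least 1 bp on the same strand, counts per gene, and IP reads. The IP pileup is IP reads times a factor. The factors recovered were 0.479 (plus strand) and 0.438 (minus strand) in the knockout list. In the wild-type list they were 0.607 and 0.572. MACS2 gives fold as (IP pileup + 1) / (local input + 1), with that factor in the pileup, and p as a Poisson tail. Pairs of both were solved for whole IP reads (tolerance 0.004) and a local input on a grid of 0.02, or at the genome background. This settled 99.1% of plus-strand and 96.7% of minus-strand knockout peaks and 99.5% and 99.4% of wild-type peaks, the 46 writer peaks included. The solving was tested on data simulated with the same formulas. That checks the code, not whether the deposited values follow the formulas. PCR copies are not told apart, so intervals cover counting error only. The files give no total reads per library.

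With 1 list per genotype no test was run. The members and gene lists were chosen with earlier results of these data known. The text names all members, genes of both pathway lists (of readers and demethylases those with no peak in 1 or both lists and the 3 with most peaks in both lists together), the markers, a gene that overlaps member peaks, the 5 genes nearest in length to METTL3 with its peak numbers, and the gene with the peak numbers of ZC3H13. Alternatives tried were 50% reciprocal overlap, summits within 100 bp, a −log10 q of at least 5, equal list lengths, the strand of the gene and bounds widened by 2000 bp.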

Additional observations from a re-analysis of the deposited data

Results flagged for a closer look

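Within 2000 bp outside the bounds of the members, a stretch that the counts per gene do not use, the knockout list held 3 peaks and the wild-type list 0. Besides the METTL16 promoter peak, 1 lay 556 bp downstream of RBM15 on its strand, at chromosome 1, 110347233 to 110347687, with 116 IP reads over a local input of 12.8 and a fold of 4.10. Another lay 1982 bp upstream of METTL3 on the opposite strand, at chromosome 14, 21513322 to 21513741, with 10 IP reads (95% Poisson interval 4.795 to 18.4) and a fold of 4.99. None of the 3 was shared. Over all protein-coding genes such flanks held 407 knockout and 546 wild-type peaks, or 2.23 and 2.41 for every 100 peaks within bounds.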

How the results depend on the processing

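The counts of writer peaks, of shared writer peaks and of members without a knockout peak, and the median log2 difference of the shared pairs, were recomputed in 6 planned ways and in 2 added after seeing the data, 46 values in all. Of these, 43 stayed within 1.5 times the count, or within 0.382 for the log2 median, which ranged from −0.05 to 0.14. Some of the 43 could not have moved. The rules of overlap and summit distance do not enter the counts of peaks or of members without a knockout peak. Equal list lengths leave the shorter knockout list as it is. ZC3H13 has knockout peaks, so leaving it out cannot change the number of members without one. Shared writer peaks numbered 9 to 11 in each list under the planned ways and 11 with at least 30 IP reads. Leaving out ZC3H13, an added way, left 6 shared knockout and 6 shared wild-type peaks, fewer because fewer genes were counted. With bounds widened by 2000 bp, the number of members with a wild-type peak and no knockout peak was 0, since the METTL3 upstream peak of 10 reads, on the opposite strand, then counted for METTL3. In the other 7 ways that number was 1, and the gene was METTL3. No paired analysis was possible because neither list holds values per replicate, and no replicate could be left out for the same reason.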

Other observations

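Along the genes with a known strand, 8 of the 17 knockout writer peaks on the strand of the gene had their summit in the 5′ part, 2 in the middle part and 7 in the 3′ part of the gene, cut into 3 parts of equal length. The 21 wild-type writer peaks fell 7, 7 and 7. Most knockout peaks in the 3′ part lay in ZC3H13 and several in the 5′ part in RBM15, so the knockout counts rest largely on few genes. Over all protein-coding genes the shares were 32.7%, 32.1% and 35.1% in the knockout list and 33.4%, 31.9% and 34.7% in the wild-type list. Of the writer peaks 1 of 18 in the knockout and 1 of 22 in wild type lay opposite to the gene, both at WTAP, beside 8.63% and 8.01% of peaks in all protein-coding genes.

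Peaks give only a weak check of the cell line, since 52.1% of all protein-coding genes had none in either list. Of genes of the cell line, 4 of 6 known from HEK293 cells (LIN28B, NEFL, IGF2BP1 and SOX2) had peaks in both lists, PAX2 in wild type alone and NEFM in neither. Of 6 markers of other cell types, ALB, HBB, MYH7, COL1A1 and INS had none, and PTPRC had 1 wild-type peak.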
